A study of Rattus norvegicus with 12 samples.

Results

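Transcript levels of 7 neuropeptide precursor genes (Tac1, Penk, Pdyn, Cck, Adcyap1, Nmu and Grp) were compared between the hypothalamus and the pituitary of adult male rats, and between offspring of dams dosed with the dioxin TCDD and offspring of dams dosed with vehicle. The genes were taken from the expression array by symbol: a probe counted if the platform's gene symbol, or the current symbol of its gene ID, was one of these names. Each gene had 1 probe, so the 7 genes, of 13337 with a symbol on the array, were measured by 7 of its 22523 probes, and all 7 passed the filter on dim probes in the fit of both tissues. The RNA came from Wistar males on postnatal day 70, born to dams given TCDD or vehicle by mouth on gestation day 15, and no group carried a transgene or a mutation. The 4 groups were hypothalamus TCDD, hypothalamus vehicle, pituitary TCDD and pituitary vehicle, with 3 arrays each. TCDD is a long-lived ligand of the aryl hydrocarbon receptor (AhR), a transcription factor, and the pups met it through the mother. The sources give the dose as 1 µg per kg in one place and 1 mg per kg in another, and the dose is not used here. Litter, dam and animal behind each array, and any pooling of tissue, are not stated in the labels, and p-values therefore cover the spread between these arrays, which may be technical.

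Neuropeptides are cut from longer precursors inside secretory granules, released from nerve terminals or endocrine cells, and read by G protein-coupled receptors on nearby or distant cells. In the hypothalamus they take part in the control of feeding, stress, body temperature and reproduction. The kisspeptin neurons of the arcuate nucleus, for example, release the tachykinin neurokinin B and the opioid dynorphin, which start and stop their own pulses of activity and thereby pace the release of gonadotropin-releasing hormone. In the pituitary, peptides arrive in nerve terminals of the neural lobe or by portal blood, and several precursors are also transcribed by endocrine cells. Both tissues hold many cell types, and fewer cells of a type and less RNA per cell cannot be told apart in these whole-tissue samples.

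The arrays matched the tissues on their labels, but the hypothalamus arrays differed among themselves in markers of neighbouring brain regions. The pituitary arrays detected 9934 to 10371 probes and the hypothalamus arrays 10852 to 11438 (detection p under 0.05), with median signals of 108.1 to 123.6 over all 12 arrays. Of 11 anterior pituitary markers on the array, all 11 were detected on at least 1 pituitary array, and 6 on at least 1 hypothalamus array. Of 13 hypothalamic peptide genes, all 13 were detected on all 6 hypothalamus arrays, and 7 on all 6 pituitary arrays. The match rests on level: the 11 markers summed to 74718.9 to 85333.8 on pituitary arrays and 1555.3 to 8820.8 on hypothalamus arrays. The 13 peptide genes summed to 53862.6 to 85698.6 on hypothalamus arrays and 3485.1 to 8169 on pituitary arrays. Trhr ran the other way, detected on 1 pituitary array and 6 hypothalamus arrays. On the first hypothalamus vehicle array, the summed signal of 6 striatum markers was 11660.9, against 3583.1 to 4555.5 on the other 5 hypothalamus arrays. The sum of 8 cortex and hippocampus markers was 14935.7 on that array, against 4715.7 to 6763.6 on the others. The sum of 8 thalamus markers was 17353.7 and 12892.2 on the first and second hypothalamus TCDD arrays, 10772.2 on the third, and 7522.2 to 10141.7 on the hypothalamus vehicle arrays. Slc17a6 alone made up the largest part of each sum, at 10994.7, 8542.4 and 7996.1 on the TCDD arrays and 5053.4, 7169.3 and 7484.3 on the vehicle arrays. Differences of the peptide genes, of which Cck, Adcyap1 and Nmu spread most over the hypothalamus arrays, are given with and without these 3 arrays. Leaving out all 3 keeps 1 TCDD array and 2 vehicle arrays of the hypothalamus, and the lone array is then assumed to vary like the others.

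Of the 7 peptide genes, 5 were higher in the hypothalamus than in the pituitary, 1 was lower and 1 did not pass the test, and these counts were the same among TCDD arrays and among vehicle arrays. Differences between the tissues were common on this array: by limma with Benjamini-Hochberg adjustment at 0.05, 64.7% of the 11910 features tested were called among TCDD arrays (28.9% higher and 35.8% lower in the hypothalamus). Among vehicle arrays 64.3% were called (28.6% higher and 35.7% lower). Of these calls 44.6% among TCDD arrays and 44.5% among vehicle arrays were higher in the hypothalamus, against 62.7% and 58.1% when arrays were scaled to a common median, which moved the median of all features by over 0.1 on the log2 scale; the direction of the 6 called genes was the same under both scalings. The arrays of the tissues did not overlap for the same 6 genes, beside 70.4% of all features among TCDD arrays and 66.7% among vehicle arrays. Cck and Adcyap1 entered the test only through the hypothalamus arrays, which favours a difference in that direction, and the count of 5 higher genes is therefore a description.

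**Figure D1:**
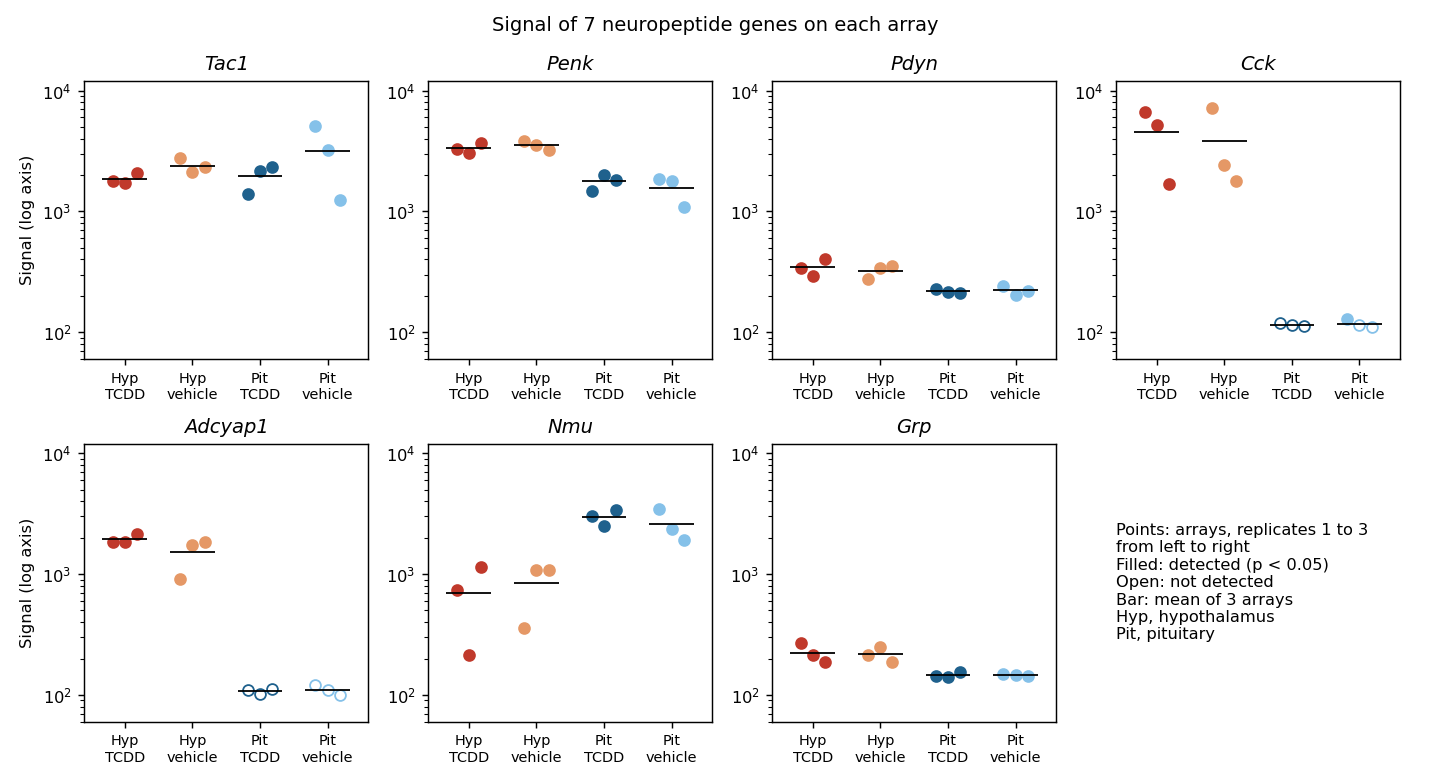
Signal of each of the 7 neuropeptide genes on every array (log axis, arbitrary units), by group, with replicates 1 to 3 from left to right; bars are means of 3 arrays, and open points are arrays on which the probe was not detected. Adcyap1 and Cck sit near 100 on the pituitary arrays and far higher on every hypothalamus array, while Nmu is the gene with higher signals in the pituitary.

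Cck and Adcyap1 had by far the widest tissue differences of the 7 genes. Cck encodes cholecystokinin, a satiety peptide in the gut and an abundant peptide of cortical and thalamic neurons. Its signal (arbitrary units, as deposited) was 6678.8, 5172.9 and 1691.5 on the hypothalamus TCDD arrays, 7199.1, 2416.3 and 1800.8 on the hypothalamus vehicle arrays, 118.8, 113.9 and 112.5 on the pituitary TCDD arrays, and 128.8, 113.9 and 110.9 on the pituitary vehicle arrays. Every hypothalamus array lay far above every pituitary array, and the probe was detected on 0 of 3 pituitary TCDD arrays and on 1 of 3 pituitary vehicle arrays. Among TCDD arrays Cck was at least 75.6-fold higher in the hypothalamus (limma adjusted p = 1.31e-07), a bound set by the lowest signal detected on each pituitary array. Among vehicle arrays the fitted log2 difference was 6.26 (SE 0.496, limma adjusted p = 2.33e-07), about 76.5-fold, and that fold is approximate because most of the pituitary arrays gave no detected signal. The vehicle difference was 5.63 without the first hypothalamus vehicle array (limma adjusted p = 2.26e-07). Without the 3 arrays with high markers of neighbouring regions, the vehicle difference was 5.60. The TCDD difference was then 5.40, on 1 hypothalamus TCDD array. Those 3 arrays held the highest Cck signals, so no p-value is read from that fit.

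Adcyap1 encodes PACAP, a peptide first purified from hypothalamus for its action on cyclic AMP in pituitary cells. Its signal was 1849.3, 1828.7 and 2159.1 on the hypothalamus TCDD arrays, 918.9, 1753.9 and 1857.2 on the hypothalamus vehicle arrays, 110.1, 102.6 and 111.8 on the pituitary TCDD arrays, and 121.3, 110.0 and 100.6 on the pituitary vehicle arrays. The probe was detected on all 6 hypothalamus arrays and on none of the 6 pituitary arrays. Adcyap1 was at least 36.8-fold higher in the hypothalamus among TCDD arrays (limma adjusted p = 6.16e-10) and at least 29.2-fold higher among vehicle arrays (limma adjusted p = 1.44e-09). Without the same 3 arrays its fitted log2 difference was 5.93 among TCDD arrays, on 1 hypothalamus TCDD array, and 5.56 among vehicle arrays.

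The opioid precursors were higher in the hypothalamus by modest amounts. Penk encodes proenkephalin, the source of the enkephalins, which act mainly on delta and mu opioid receptors. Its signal was 3268.4, 3024.4 and 3661.7 on the hypothalamus TCDD arrays, 3834.2, 3515.4 and 3222.9 on the hypothalamus vehicle arrays, 1478.8, 2013.2 and 1831.3 on the pituitary TCDD arrays, and 1843.2, 1783.7 and 1092.1 on the pituitary vehicle arrays. The tissues did not overlap, and the pituitary signal was still well above background on every array. The log2 difference, hypothalamus minus pituitary, was 0.71 among TCDD arrays (1.63-fold, SE 0.161, limma adjusted p = 0.00192) and 1.09 among vehicle arrays (2.13-fold, SE 0.161, limma adjusted p = 6.72e-05). Without the 3 arrays with high markers of neighbouring regions it was 0.93 among TCDD arrays, on 1 hypothalamus TCDD array, and 1.03 among vehicle arrays.

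Pdyn encodes prodynorphin, the source of the dynorphins, ligands of the kappa opioid receptor that are made by magnocellular vasopressin neurons and by arcuate kisspeptin neurons. Its signal was 339.5, 294.4 and 405.8 on the hypothalamus TCDD arrays, 275.4, 339.1 and 355.7 on the hypothalamus vehicle arrays, 229.0, 213.8 and 210.9 on the pituitary TCDD arrays, and 243.4, 204.8 and 219.5 on the pituitary vehicle arrays. The gene was detected on all 12 arrays, and the tissues did not overlap. The log2 difference was 0.71 among TCDD arrays (1.64-fold, SE 0.189, limma adjusted p = 0.00531) and 0.68 among vehicle arrays (1.60-fold, SE 0.189, limma adjusted p = 0.00731). Without the same 3 arrays it was 1.10 among TCDD arrays, on 1 hypothalamus TCDD array, and 0.83 among vehicle arrays.

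Grp encodes gastrin-releasing peptide, a bombesin-like peptide that in the rat marks neurons of the suprachiasmatic nucleus among other sites. Its signal was 269.6, 212.1 and 186.4 on the hypothalamus TCDD arrays, 215.4, 247.2 and 187.2 on the hypothalamus vehicle arrays, 143.5, 141.5 and 153.8 on the pituitary TCDD arrays, and 150.2, 147.4 and 142.1 on the pituitary vehicle arrays. The pituitary signals were low, close together and detected on all 6 arrays, and every hypothalamus array was above them. The log2 difference was 0.96 among TCDD arrays (1.95-fold, SE 0.150, limma adjusted p = 0.000104) and 0.99 among vehicle arrays (1.98-fold, SE 0.150, limma adjusted p = 8.49e-05). Without the same 3 arrays it was 0.69 among TCDD arrays, on 1 hypothalamus TCDD array, and 0.99 among vehicle arrays.

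Nmu was the gene that ran the other way. It encodes neuromedin U, which acts on feeding and stress circuits and in the rat is transcribed in the pars tuberalis, the part of the pituitary that wraps the stalk beneath the hypothalamus. Its signal was 742.7, 214.2 and 1150.9 on the hypothalamus TCDD arrays, 356.9, 1087.1 and 1080.1 on the hypothalamus vehicle arrays, 3016.8, 2521.8 and 3388.7 on the pituitary TCDD arrays, and 3475.8, 2357.4 and 1906.6 on the pituitary vehicle arrays. The hypothalamus arrays spread widely and all lay below the pituitary arrays. The log2 difference was -2.92 among TCDD arrays (7.55-fold lower in the hypothalamus, SE 0.631, limma adjusted p = 0.00131) and -2.03 among vehicle arrays (4.08-fold lower, SE 0.631, limma adjusted p = 0.0131). The TCDD difference was -2.07 without the second hypothalamus TCDD array (limma adjusted p = 0.00289) and -3.58 without the third (limma adjusted p = 0.000274). Without the first hypothalamus vehicle array, where striatum and cortex markers were high, the vehicle difference was -1.39 and no longer passed the test (limma adjusted p = 0.0621). Without that array and the first and second hypothalamus TCDD arrays, the vehicle difference was again -1.39. The TCDD difference was then -1.58, on 1 hypothalamus TCDD array. These 3 arrays held the lowest Nmu signals of the hypothalamus. Leaving them out narrowed the spread by selection, so no p-value is read from that fit.

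Tac1, the precursor of the tachykinins substance P and neurokinin A, did not pass the test between tissues. Its signal was 1796.4, 1708.8 and 2074.7 on the hypothalamus TCDD arrays, 2755.1, 2103.3 and 2332.1 on the hypothalamus vehicle arrays, 1382.0, 2177.2 and 2338.1 on the pituitary TCDD arrays, and 5115.1, 3196.3 and 1244.4 on the pituitary vehicle arrays. The tissues overlapped, and the pituitary vehicle arrays held both the highest and the lowest signal of the 12. The log2 difference was -0.26 among TCDD arrays (95% interval -0.99 to 0.47, limma adjusted p = 0.517) and -0.35 among vehicle arrays (95% interval -1.08 to 0.39, limma adjusted p = 0.388). The vehicle value rested on the pituitary spread: it was 0.0068 without the first pituitary vehicle array, and -0.82 without the third, where it passed the test (limma adjusted p = 0.0129). The TCDD value was 0.059 when arrays were scaled to a common median. Without the 3 arrays with high markers of neighbouring regions it was 0.0074, on 1 hypothalamus TCDD array, and the vehicle value was -0.44.

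**Figure D2:**
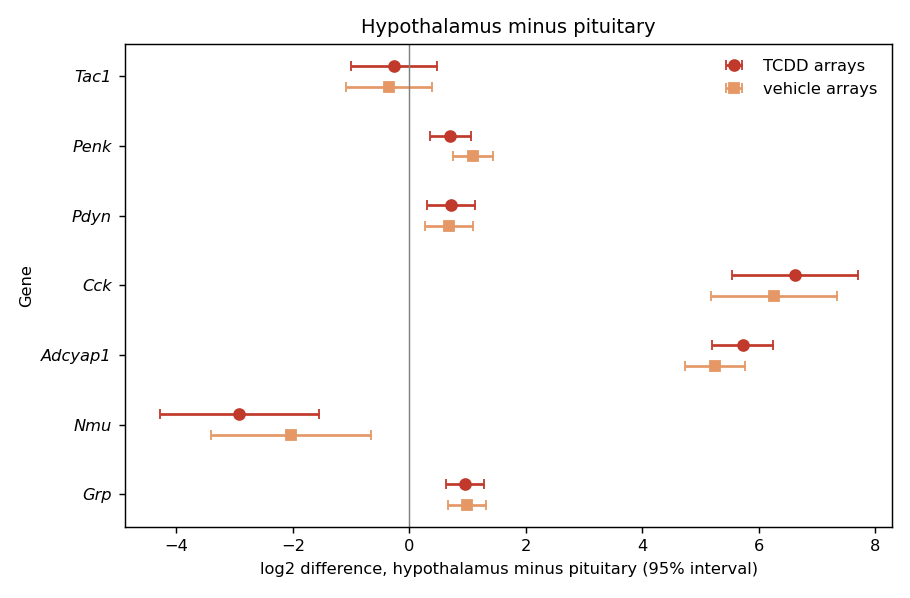
Log2 difference in transcript level, hypothalamus minus pituitary, for each neuropeptide gene among TCDD arrays (circles) and vehicle arrays (squares), with 95% intervals from limma (3 arrays per group). Cck and Adcyap1 lie above 5, Nmu lies below -2, and the intervals of Tac1 include 0; for Cck and Adcyap1 the pituitary values are at background, so their fitted differences are not bounds.

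Set in order by group mean on the jointly normalized log2 scale, Penk, Pdyn, Cck, Grp and Adcyap1 had both hypothalamus groups above both pituitary groups, and Nmu had both below. Every pair of a hypothalamus group with a pituitary group passed the test for these 6 genes, with limma adjusted p from 6.16e-10 for Adcyap1 to 0.0131 for Nmu. The TCDD and vehicle groups of the same tissue, which were neighbours in each order, did not pass the test in any of these genes. For Tac1, whose group means were 10.7, 11.1, 10.9 and 11.4 (log2) in hypothalamus TCDD, hypothalamus vehicle, pituitary TCDD and pituitary vehicle, no pair passed the test, and the closest was hypothalamus TCDD against pituitary vehicle (log2 difference -0.77, limma adjusted p = 0.0623).

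No peptide gene changed with maternal TCDD in either tissue after adjustment. In the hypothalamus 0 of the 7 genes passed, beside 0.00901% of the 11095 features tested, and 1 gene, Tac1, had an unadjusted p under 0.05, beside 5.36% of all features. In the pituitary 5 of the 7 genes could be tested, since Cck and Adcyap1 were not detected on enough arrays there, and 0 passed, beside 0% of 10119 features. None of these 5 had an unadjusted p under 0.05, beside 6.05% of all features. By limma, 595 features in the hypothalamus and 612 in the pituitary had an unadjusted p under 0.05. The median log2 difference, TCDD minus vehicle, was -0.06 over the 7 genes in the hypothalamus and -0.02 over the 5 genes in the pituitary, against 0.0027 over all features in the hypothalamus and 0.00058 in the pituitary.

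Tac1 in the hypothalamus came nearest to a TCDD difference. The TCDD signals of 1796.4, 1708.8 and 2074.7 all lay below the vehicle signals of 2755.1, 2103.3 and 2332.1 as deposited. After normalization the values were 10.55, 10.69 and 11.03 (log2) on the TCDD arrays and 11.40, 10.95 and 11.25 on the vehicle arrays, so that the groups overlapped by 1 array. The log2 difference was -0.44 (SE 0.167, 95% interval -0.82 to -0.06, limma adjusted p = 0.883). It was -0.58 to -0.34 with any single array left out, and -0.07 without the 3 arrays with high striatum, cortex or thalamus markers, where 1 TCDD array is set against 2 vehicle arrays. In the pituitary the TCDD signals of 1382.0, 2177.2 and 2338.1 lay inside the range of the vehicle signals of 5115.1, 3196.3 and 1244.4. The log2 difference there was -0.51, with a 95% interval of -1.39 to 0.37 (SE 0.385, limma adjusted p = 0.900).

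For the opioid precursors and Grp the intervals of the TCDD difference on all arrays held no 2-fold change. Penk differed by -0.14 in the hypothalamus (95% interval -0.45 to 0.16, limma adjusted p = 0.906) and by 0.23 in the pituitary (95% interval -0.15 to 0.62, limma adjusted p = 0.900), on the log2 scale. Pdyn differed by 0.02 in the hypothalamus (95% interval -0.47 to 0.50, limma adjusted p = 0.994) and by -0.02 in the pituitary (95% interval -0.33 to 0.29, limma adjusted p = 0.993). Grp differed by -0.06 in the hypothalamus (95% interval -0.44 to 0.32, limma adjusted p = 0.972) and by -0.03 in the pituitary (95% interval -0.28 to 0.23, limma adjusted p = 0.983). In each of these 6 comparisons the TCDD and vehicle arrays overlapped, and the interval left out a 2-fold change in either direction. These intervals cover only the spread between these arrays. Without the 3 arrays with high markers of neighbouring regions, the hypothalamus values were 0.14 for Penk, 0.26 for Pdyn and -0.33 for Grp, on 1 TCDD array.

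For Cck, Nmu and Adcyap1 in the hypothalamus the intervals were wide. Cck differed by 0.25 (SE 0.604, 95% interval -1.14 to 1.64, limma adjusted p = 0.962), Nmu by -0.61 (SE 0.771, 95% interval -2.39 to 1.16, limma adjusted p = 0.918) and Adcyap1 by 0.39 (SE 0.289, 95% interval -0.27 to 1.06, limma adjusted p = 0.884). Among all features tested in the hypothalamus, the spread within groups stood at percentile 99.7 for Cck, 99.9 for Nmu and 97.0 for Adcyap1, and the intervals of all 3 held a difference of 2-fold. Nmu in the pituitary was measured more tightly, at 0.27 (SE 0.133, 95% interval -0.04 to 0.57, limma adjusted p = 0.847), with the deposited TCDD signals inside the range of the vehicle signals. The TCDD difference in the hypothalamus minus that in the pituitary passed the test for 0 of the 7 genes, beside 0% of the 11910 features, with limma adjusted p of 0.824 to 0.987; 6.19% of the features had an unadjusted p under 0.05, and none of the 7 genes did.

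**Figure D3:**
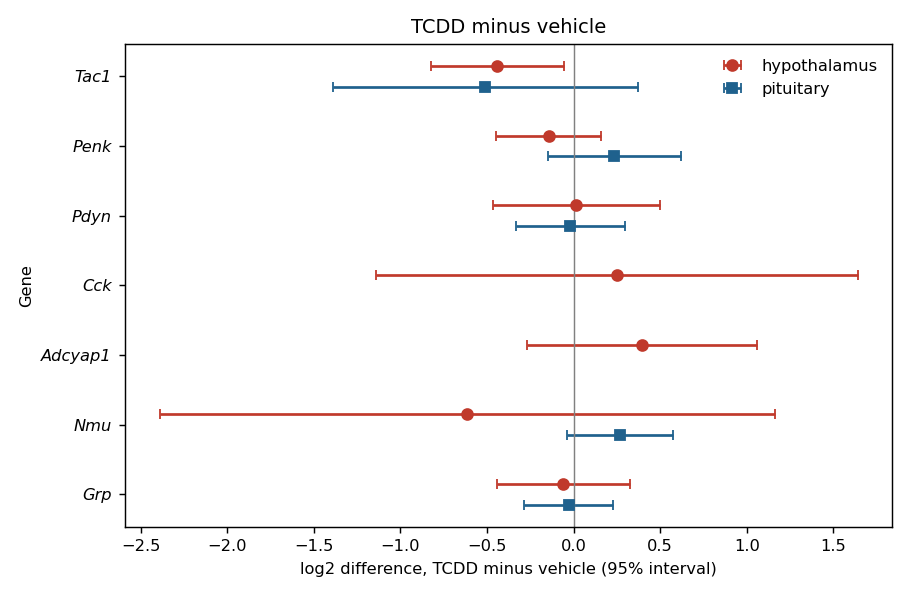
Log2 difference in transcript level, TCDD minus vehicle, for each neuropeptide gene in the hypothalamus (circles) and the pituitary (squares), with 95% intervals from limma (3 arrays per group). Cck and Adcyap1 were not tested in the pituitary; the interval of Nmu in the hypothalamus runs from -2.39 to 1.16, while those of Penk, Pdyn and Grp stay within 0.62 of 0.

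The 3 genes with the widest spread in the hypothalamus are set array by array beside markers of other tissue. Of the 3, only Cck was high on each marker-high array. Cck was high on 3 of the 6 arrays: the first vehicle array (7199.1), where the striatum and cortex markers were highest, and the first and second TCDD arrays (6678.8 and 5172.9), where the thalamus markers were highest. On the other 3 arrays it was 1691.5 to 2416.3. With those 3 high arrays left out, a choice made after seeing the data, Cck differed between TCDD and vehicle by -0.31, on 1 TCDD array and 2 vehicle arrays. Leaving out the highest Cck signals narrowed the spread by selection, so no p-value is read from that fit. By group mean, thalamus markers were higher with TCDD in 8 of 8 genes, 3 with a limma unadjusted p under 0.05, beside 5.36% of all features. Their adjusted p was 0.883 each. Their sum was 17353.7 and 12892.2 on the first 2 TCDD arrays but 10772.2 on the third. By mean, 6 of 6 striatum and 5 of 5 tested cortex markers were lower, with 0 at an unadjusted p under 0.05. Both lists had their high sums on the first vehicle array alone, so these means rest on single arrays. The part of these markers in the values of Cck was not tested.

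Adcyap1 and Nmu were both low on the first hypothalamus vehicle array. Adcyap1 was 918.9 there, against 1753.9 to 2159.1 on the other 5. Its TCDD difference, 0.39 on all arrays, was 0.04 without that array and 0.62 without the third vehicle array. These were the lowest and highest values with any single array left out. Without the 3 arrays with high markers of neighbouring regions the difference of Adcyap1 was 0.30, on a lone TCDD array. Nmu was lowest on the second TCDD array (214.2) and next lowest on the first vehicle array (356.9). Tshb, the beta subunit of thyrotropin, which in the rat is made in the pars tuberalis as well as in the anterior lobe, was singled out after its values were seen: its signal was 2052.5, 388.5 and 7642.7 on the hypothalamus TCDD arrays and 602.2, 3120.6 and 2664.7 on the hypothalamus vehicle arrays. As deposited, Nmu and Tshb placed the 6 arrays in the same order. After normalization Nmu was 9.96 (log2) on the second hypothalamus vehicle array and 10.10 on the third, the reverse of their deposited order. The summed signal of the 11 anterior pituitary markers ran from 1555.3 to 8820.8 on the hypothalamus TCDD arrays and from 1915.6 to 4487.9 on the hypothalamus vehicle arrays, and Tshb made up 7642.7 of the 8820.8. Of the 11 markers, 5 were detected on none of these arrays. Prl (prolactin) was 351.7, 106.2 and 113.1 on the hypothalamus TCDD arrays and 187.5, 115.0 and 377.5 on the hypothalamus vehicle arrays, and Lhb, a subunit gene of luteinizing hormone, had 173.9, 131.7 and 137.4 on the TCDD arrays and 114.1, 217.1 and 139.4 on the vehicle arrays. Neither placed the arrays in the order of Nmu, and neither was highest on the third TCDD array, where Nmu and Tshb were. Without the second TCDD array the TCDD difference of Nmu was 0.23 in place of -0.61, and the part of pituitary tissue in it was not tested.

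**Figure D4:**
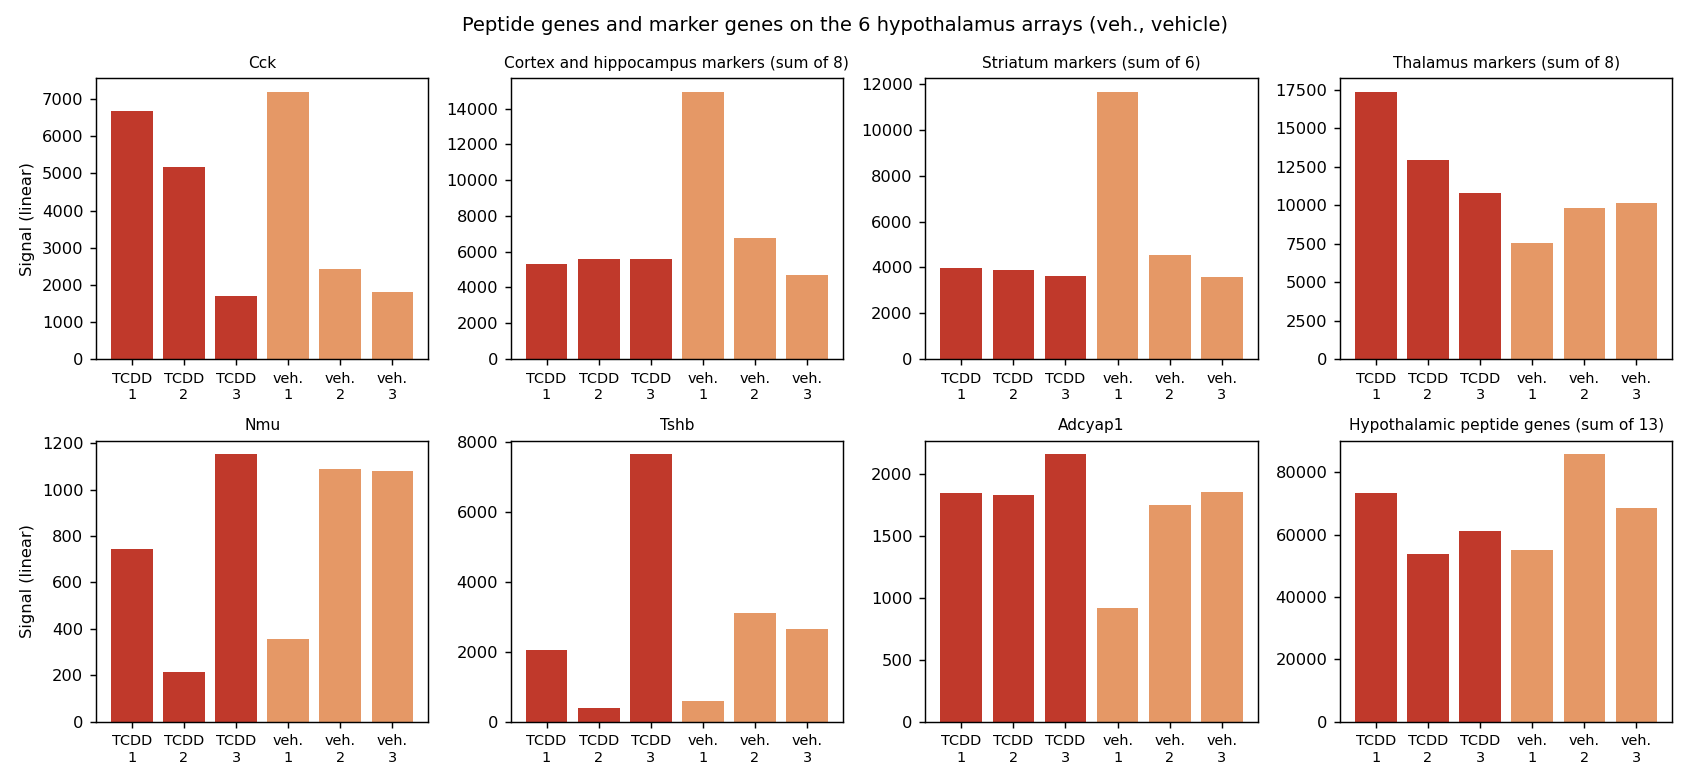
Signal (linear, arbitrary units) of Cck, Nmu, Adcyap1 and Tshb and the summed signal of 4 marker lists on the 3 TCDD and 3 vehicle arrays of the hypothalamus. Cck is high on the first vehicle array, with high cortex and striatum markers, and on the first 2 TCDD arrays, with high thalamus markers; Nmu and Tshb are both lowest on the second TCDD array and highest on the third.

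TCDD acts through AhR, which with its partner ARNT binds a short DNA core, so promoters of the peptide genes were searched for it. RefSeq sequences of assembly GRCr8 were matched for 5 of the 7 genes (Tac1, Pdyn, Adcyap1, Nmu and Grp), each 300 bases long, with 250 before and 50 after the annotated start. The core searched was GCGTG or, on the other strand, CACGC, which 29.7% of 33469 rat promoters of this length held. It occurred 3 times in Tac1, 4 times in Nmu (a pair of these overlap) and 1 time in Grp, and was not found in these windows of Pdyn and Adcyap1. The full cyclic AMP response element TGACGTCA was in none of the 5 windows and in 1.8% of all promoters, and its shorter form TGACG or CGTCA was 1 time each in Tac1, Nmu and Grp and in 21.2% of all promoters. Shown are Tac1, the gene with the smallest TCDD p, and Nmu and Adcyap1, which had opposite tissue differences; capitals mark the AhR core, and each is written on its own strand, at chr4:36645333-36645632 (plus strand), chr14:32198693-32198992 (plus strand) and chr9:120556424-120556723 (minus strand).
Tac1: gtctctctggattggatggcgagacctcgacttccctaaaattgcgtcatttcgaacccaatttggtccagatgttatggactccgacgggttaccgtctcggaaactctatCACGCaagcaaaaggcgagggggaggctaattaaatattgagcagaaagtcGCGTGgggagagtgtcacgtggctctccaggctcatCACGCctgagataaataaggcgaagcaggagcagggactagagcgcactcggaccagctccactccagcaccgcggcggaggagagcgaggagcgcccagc
Nmu: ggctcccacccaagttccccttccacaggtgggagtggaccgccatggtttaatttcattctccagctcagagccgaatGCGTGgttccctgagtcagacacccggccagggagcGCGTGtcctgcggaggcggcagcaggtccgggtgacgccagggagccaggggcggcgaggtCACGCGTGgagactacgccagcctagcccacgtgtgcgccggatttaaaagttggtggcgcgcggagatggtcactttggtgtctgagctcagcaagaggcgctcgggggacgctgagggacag
Adcyap1: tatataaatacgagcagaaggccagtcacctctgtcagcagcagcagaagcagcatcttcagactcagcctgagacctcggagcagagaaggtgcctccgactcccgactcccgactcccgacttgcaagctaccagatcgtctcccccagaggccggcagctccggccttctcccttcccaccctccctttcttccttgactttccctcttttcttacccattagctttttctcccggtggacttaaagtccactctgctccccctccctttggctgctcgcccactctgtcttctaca
A match describes the letters of the window and says nothing on binding in these tissues, and the genes with and without it alike did not pass the test for TCDD.

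Receptors for these peptides were mostly dim in both tissues. Of 17 receptor genes listed, 13 had a probe and 9 could be tested. Of these 9, 7 were detected on 0 pituitary arrays and Cckbr on 1, so they entered the test through the hypothalamus arrays and no count of directions is read from them; Vipr2, a receptor of PACAP and vasoactive intestinal peptide, was detected on 4 pituitary arrays. Nmur1 and Nmur2, the neuromedin U receptors, and Grpr, the receptor of gastrin-releasing peptide, were detected on 0 of the 12 arrays, and Oprm1, the mu opioid receptor, on 1 hypothalamus array.

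Oprl1, the receptor of the opioid-related peptide nociceptin, had the brightest contrast among the receptors. Its signal was 856.4, 727.1 and 836.7 on the hypothalamus TCDD arrays, 470.3, 665.0 and 726.7 on the hypothalamus vehicle arrays, 112.8, 116.6 and 111.1 on the pituitary TCDD arrays, and 99.6, 109.3 and 95.7 on the pituitary vehicle arrays. It was detected on all hypothalamus arrays and on no pituitary array, and was at least 14.0-fold higher in the hypothalamus among TCDD arrays (limma adjusted p = 3.69e-10) and at least 11.4-fold among vehicle arrays (limma adjusted p = 5.25e-10). Tacr1, the receptor of substance P, had 190.1, 172.5 and 156.1 on the hypothalamus TCDD arrays and 222.7, 200.4 and 186.4 on the hypothalamus vehicle arrays, and was not detected on any pituitary array. It was at least 1.81-fold higher in the hypothalamus among TCDD arrays (limma adjusted p = 5.53e-08) and at least 2.68-fold among vehicle arrays (limma adjusted p = 4.69e-09). Cckbr, the cholecystokinin receptor of the brain, was at least 1.47-fold higher among TCDD arrays (limma adjusted p = 0.00136) and had a fitted log2 difference of 1.35 among vehicle arrays (SE 0.281, limma adjusted p = 0.000989), where 1 of 3 pituitary arrays detected it. Tacr3, the neurokinin B receptor, lay close to background, at least 1.20-fold higher in the hypothalamus among TCDD arrays. So did Nmbr, the neuromedin B receptor, with 214.5, 140.6 and 105.8 on the hypothalamus TCDD arrays, of which 2 detected it. Its value of 1.32-fold among TCDD arrays includes the undetected array in the mean and is approximate, not a bound.

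**Figure D5:**
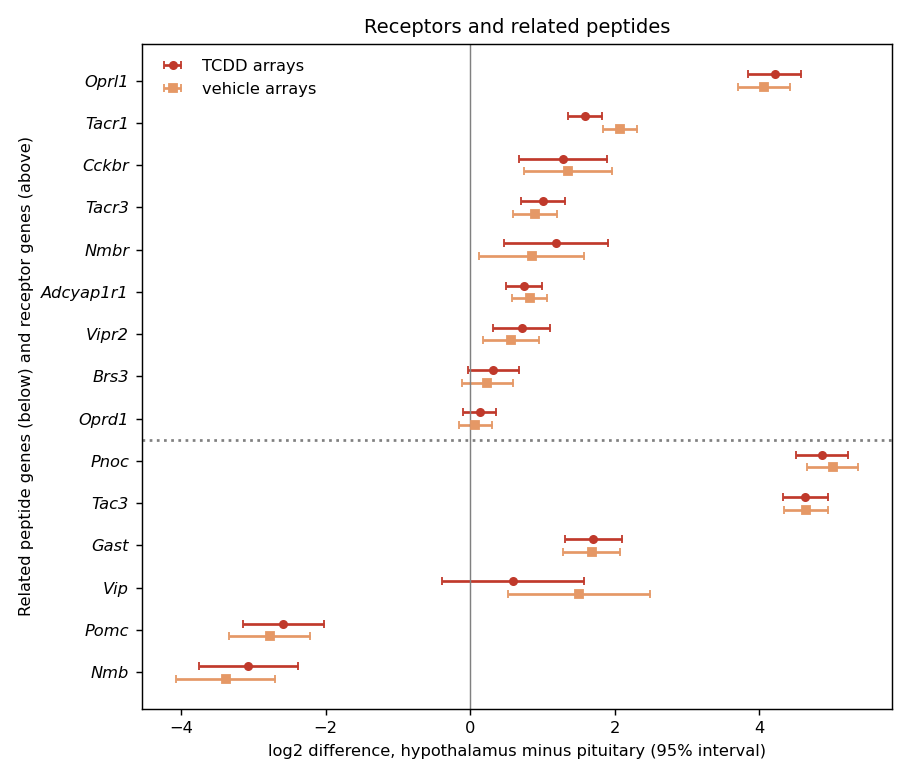
Log2 difference in transcript level, hypothalamus minus pituitary, for 9 receptor genes (above the dotted line) and 6 related peptide genes (below it), among TCDD arrays (circles) and vehicle arrays (squares), with 95% intervals from limma (3 arrays per group). Pomc and Nmb are the 2 related peptide genes below 0; 8 of the 9 receptors entered the test through the hypothalamus arrays, and where the pituitary was at background (Oprl1, Tacr1, Tac3 and Gast, for example) the fitted difference is not a bound.

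Of the 9 receptors tested in the hypothalamus, Tacr1 had the smallest p for TCDD. In the hypothalamus its 3 TCDD signals of 190.1, 172.5 and 156.1 and its 3 vehicle signals of 222.7, 200.4 and 186.4 overlapped by 1 array as deposited and did not overlap after normalization. The log2 difference was -0.50 (SE 0.123, 95% interval -0.79 to -0.22, limma adjusted p = 0.883), which did not pass the test though its unadjusted p was under 0.05, and it was -0.56 to -0.41 with any single array left out. The groups of 10.9% of all features tested in the hypothalamus did not overlap.

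Close relatives of the 7 peptides were split between the tissues. Of 8 listed, 7 had a probe and 6 could be tested. Among TCDD arrays 3 were higher in the hypothalamus and 2 lower, and among vehicle arrays 4 were higher and 2 lower, beside 28.9% and 35.8% of all features among TCDD arrays and 28.6% and 35.7% among vehicle arrays. Tac3 and Gast entered only through the hypothalamus arrays. Tac3, the precursor of neurokinin B, had 870.5, 826.1 and 1079.0 on the hypothalamus TCDD arrays and 809.7, 975.1 and 758.2 on the hypothalamus vehicle arrays, with no pituitary array above background, and was at least 16.2-fold higher in the hypothalamus among TCDD arrays (limma adjusted p = 3.69e-11). Pnoc, the precursor of nociceptin, had a log2 difference of 4.87 among TCDD arrays (29.2-fold, SE 0.164, limma adjusted p = 8.38e-11) and 5.02 among vehicle arrays (32.4-fold, limma adjusted p = 7.02e-11). These folds are approximate, since its pituitary signals were dim, at 120.4 to 154.4. Over the alternative settings the difference ran from 3.69 to 5.09 among TCDD arrays and from 3.74 to 5.20 among vehicle arrays. Gast, whose product gastrin shares its active end with cholecystokinin, was at least 2.09-fold higher among TCDD arrays (limma adjusted p = 3.79e-06). Vip, the PACAP relative vasoactive intestinal peptide, had a log2 difference of 0.59 among TCDD arrays (limma adjusted p = 0.271) and 1.51 among vehicle arrays (SE 0.455, limma adjusted p = 0.0110); without the first hypothalamus vehicle array the vehicle value missed the threshold (limma adjusted p = 0.0520), as it did without the third pituitary vehicle array (limma adjusted p = 0.0524).

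Pomc and Nmb were the relatives lower in the hypothalamus. Pomc, the opioid and melanocortin precursor of pituitary corticotropes and melanotropes, was 6.00-fold lower among TCDD arrays (log2 difference -2.59, SE 0.258, limma adjusted p = 1.91e-06). Its pituitary signals of 23814.1 to 27914.9 came near the highest signals on the arrays, 28048.3 to 35744.2, and saturation was not tested. Nmb, the bombesin-like neuromedin B, had 253.3, 214.6 and 257.5 on the hypothalamus TCDD arrays, 383.3, 272.5 and 299.6 on the hypothalamus vehicle arrays, 2071.2, 915.4 and 979.2 on the pituitary TCDD arrays, and 3089.5, 1669.8 and 2435.0 on the pituitary vehicle arrays. Among TCDD arrays it was 8.41-fold lower in the hypothalamus (log2 difference -3.07, SE 0.317, limma adjusted p = 2.63e-06). Between TCDD and vehicle its log2 difference was -0.65 in the hypothalamus (SE 0.192, limma adjusted p = 0.883) and -0.95 in the pituitary (SE 0.344, limma adjusted p = 0.770), and neither passed the test though each unadjusted p was under 0.05.

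Genes that cut and finish peptide precursors were called in both directions. Of 8 such genes tested, 2 were higher and 4 lower in the hypothalamus among TCDD arrays (beside 28.9% and 35.8% of all features), and the counts were the same among vehicle arrays (beside 28.6% and 35.7%), near the background for a list of this size. Pcsk2, the prohormone convertase that frees enkephalins and dynorphins, had a log2 difference of -0.89 among TCDD arrays (SE 0.168, limma adjusted p = 0.000457) and -1.65 among vehicle arrays (SE 0.168, limma adjusted p = 2.42e-06). Its chaperone Scg5 stood at -0.89 among TCDD arrays (limma adjusted p = 7.75e-05) and -1.34 among vehicle arrays (limma adjusted p = 2.24e-06). The amidating enzyme Pam, which completes substance P, cholecystokinin and PACAP, stood at -0.93 among TCDD arrays (limma adjusted p = 0.000178) and -1.32 among vehicle arrays (limma adjusted p = 8.67e-06). Qpct, which forms the N-terminal pyroglutamate of some peptides, was at least 6.40-fold higher in the hypothalamus among TCDD arrays (limma adjusted p = 5.42e-08). The pituitary signal of Pcsk2 was 1034.2, 689.3 and 711.5 on TCDD arrays, against 1394.1, 1069.7 and 920.0 on vehicle arrays, a log2 difference of -0.49 that did not pass the test (SE 0.166, limma adjusted p = 0.770). After normalization the Pcsk2 groups did not overlap, as was so for 11.1% of all features in the pituitary.

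Of 10 peptide-degrading enzymes tested, 2 were higher and 6 lower in the hypothalamus among TCDD arrays, and 1 was higher and 5 lower among vehicle arrays. For all features these shares were 28.9% and 35.8% among TCDD arrays and 28.6% and 35.7% among vehicle arrays, and no direction is read from a list of 10. The differences of at least 2-fold were Ece2, higher (log2 difference 1.78 among TCDD arrays, limma adjusted p = 1.00e-06), and Ece1 (-1.56, limma adjusted p = 8.29e-06), Ace (-1.43, limma adjusted p = 3.42e-06) and Enpep, lower, the last by at least 2.12-fold (limma adjusted p = 1.02e-07). Ece1, an endothelin-converting enzyme that also cuts substance P in endosomes, had 523.4, 394.3 and 434.9 on the hypothalamus TCDD arrays and 350.8, 370.6 and 296.2 on the hypothalamus vehicle arrays. Its groups did not overlap, and its log2 difference with TCDD was 0.40 (SE 0.121, limma adjusted p = 0.883), which did not pass the test though its unadjusted p was under 0.05.

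Of 9 listed genes tied to kisspeptin signalling, which include Pdyn and steroid receptors, 7 had a probe and 5 could be tested. Tac3, Kiss1r, Tacr3 and Kiss1 were detected on 0 pituitary arrays and entered the test only through the hypothalamus, so no count is read from the list. Kiss1r, the kisspeptin receptor, was at least 4.22-fold higher in the hypothalamus among TCDD arrays (limma adjusted p = 1.59e-08) and at least 4.90-fold among vehicle arrays (limma adjusted p = 8.47e-09). Kiss1 itself was detected on 4 of 6 hypothalamus arrays and no pituitary array. With TCDD 0 of the 5 passed in the hypothalamus, at a median log2 difference of 0.03.

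The genes whose profile over the 12 arrays was most like each peptide gene were found by the root mean square difference between gene-centred log2 values. For Cck they were Mobp (0.46), Ttc9b (0.50) and Mog (0.58), of which Mobp and Mog are myelin genes. For Adcyap1 they were Glra2 (0.27), Slc12a5 (0.30) and Prph (0.36), which encode a glycine receptor subunit, a neuronal chloride transporter and a neuronal intermediate filament. Nmu had no close match, with Dcn (0.63), Slpi (0.64) and Cd74 (0.64) nearest. Penk was nearest to Kcnj14 (0.15), Pdyn to Aamdc (0.11), Grp to Smap2 (0.12) and Tac1 to Rbbp7 (0.30). The 12 arrays fall into 2 tissues, and a shared tissue difference enters each of these values.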

How the data were processed

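The report uses Illumina RatRef-12 BeadChip arrays from 12 samples. Per the file headers, the authors deposited a table holding detection p-values and signal intensity values without normalization, for every probe on each array, and a second table of normalized intensity values, normalized by tissue per the labels' series text, by a method not given in the sources used here. The second table served as an alternative only. Scanner software and earlier background steps are likewise not given.

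Of 22523 probes, 13793 had 1 gene symbol in the platform annotation, 0 had several and 8730 were unnamed here; 13752 had a current symbol by gene ID in a RefSeq table of GRCr8. Signals were background-corrected from the detection p-values (limma nec, offset 16), quantile normalized, and converted to log2, with R 4.3.3 and limma 3.58.1. The offset draws the folds of dim probes toward 1. Probes entered the test with a detection p under 0.05 on 3 or more arrays of the fit, and a gene was represented by its tested probe of highest mean. TCDD and vehicle arrays were compared within tissues (6 arrays normalized alone), and hypothalamus with pituitary, and the difference of the TCDD effects, on all 12 arrays with 4 groups, by lmFit and eBayes, two-sided, with Benjamini-Hochberg adjustment at 0.05 over all features. Where a group had no detected array, the fold is a bound: the mean of the bright group against a floor per array, which is the lowest value detected on it or, if higher, the value of the probe. Precision is limited by 3 arrays per group. Code was tested on simulated data.

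The 7 genes, the lists of receptors, related peptides, enzymes and markers, and the comparisons were chosen with earlier results of these data known. From those lists the text names genes past an adjusted p of 0.05 with at least a 2-fold tissue difference and genes with an unadjusted p under 0.05 for TCDD whose groups did not overlap; other names are given to complete a count or were chosen after their values were seen. Alternatives were the scaling, background step, offset, filter, moderation, array weights, probe summary, replicate block, arrays in the fit, the authors' table and each array left out. No per-array columns were left unused.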

Additional observations from a re-analysis of the deposited data

How the results depend on the processing

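The counts of peptide genes past the threshold (6 in each tissue comparison, 0 for TCDD in each tissue and for the difference of the TCDD effects) stayed within 1.5 times their value under every alternative run, and were 5 to 7 with any single array left out of the vehicle tissue comparison. Penk, Pdyn, Cck, Adcyap1, Nmu and Grp kept their tissue direction under all of them. Between scaling arrays to a common median and quantile normalization, the median of all features moved to 0.07 from -0.09 among vehicle arrays and to 0.12 from -0.10 among TCDD arrays, and the share of calls higher in the hypothalamus was 58.1% in place of 44.5% and 62.7% in place of 44.6%. The count of all features called for TCDD in the pituitary was 0, and became 2 with no background correction or with the authors' table, 1 with offset 50, array weights or detection on all 6 arrays, 3 with trended robust moderation, and 0 to 3 with any single array left out. In the hypothalamus it was 1, and became 2 with median scaling, no background correction, offset 50, no filter, detection on all 6 arrays or the authors' table, 3 with trended robust moderation or array weights, 0 with all 12 arrays fitted together, 1 to 3 with any single array left out, and 52 without the 3 arrays with high striatum, cortex or thalamus markers, where the lone TCDD array is assumed to vary like the others. The difference of the TCDD effects gave 0, and 0 to 1 with any single array left out.

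Reversals were confined to values that had not passed the test. For TCDD in the pituitary, Pdyn was 0.061 with array weights and -0.14 to 0.11 with any single array left out, and Grp was -0.097 to 0.053 with any single array left out. For TCDD in the hypothalamus, Pdyn was -0.11 with array weights, and with any single array left out Pdyn was -0.19 to 0.15, Cck -0.12 to 0.85, Nmu -1.27 to 0.23 and Grp -0.18 to 0.067. Without the 3 marker-high arrays, Penk was 0.14, Cck -0.31 and Nmu 0.081. Tac1 between tissues was 0.059 with median scaling and 0.0074 without the 3 arrays among TCDD arrays, and -0.82 to 0.0068 with any single array left out among vehicle arrays. For the difference of the TCDD effects, Grp was 0.065 with median scaling, Pdyn -0.16 with array weights and Cck -0.19 without the 3 arrays, and with any single array left out Tac1 was -0.27 to 0.55, Pdyn -0.16 to 0.17, Cck -0.016 to 0.98 and Grp -0.15 to 0.098. The cause was not tested.

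The replicate number as a block changed no call of a peptide gene (Nmu among vehicle arrays had a limma adjusted p of 0.0133). Over all features it gave 7617 calls in the vehicle tissue comparison, 7691 in the TCDD one, 0 for TCDD in the pituitary and 1 in the hypothalamus. Deviations of same-numbered arrays correlated at 0.07 to 0.19 in the pituitary, 0.10 to 0.26 in the hypothalamus, -0.04 to 0.34 across vehicle arrays and -0.18 to 0.05 across TCDD arrays, so the numbers were not taken as pairs. These are the labels' replicate numbers; the numbers in the sample titles differ, and each treatment has 1 title number in both tissues, whose arrays correlated at 0.10 (TCDD) and -0.21 (vehicle). With the title number as a random block, an alternative chosen after seeing the data, 7615 features were called in the TCDD tissue comparison, 7568 in the vehicle one and 0 for the difference of the TCDD effects, and no call of a peptide gene changed. A slide block was not run, since the headers name no slide. Signal over background limits Cck and Adcyap1 in the pituitary and most receptors.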
